A study of Mus musculus with 503 samples.

Results

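Perivascular cells of the spinal cord that carried a GLAST-lineage mark (tdTomato+EGFP+) were compared with perivascular cells that did not (tdTomato-EGFP+), 3 days after spinal cord injury (SCI). The cells of this comparison were all those labelled 3 d after SCI, which sat on 2 sorting plates, 211 and 215. The design text of the series gives 5 days for its injured cells, and the labels' 3 days are used here. Of 227 such cells, 225 had 200 or more detected genes, under 20% mitochondrial counts and no dominant Pecam1 signal, and were kept out of 468 kept and 503 deposited cells in the series. The kept cells comprised 88 tdTomato+EGFP+ and 58 tdTomato-EGFP+ cells on plate 211, and 34 tdTomato+EGFP+ and 45 tdTomato-EGFP+ cells on plate 215. Both removed cells were tdTomato-EGFP+ cells of plate 215 whose Pecam1 level, an endothelial adhesion molecule, taken as the natural log of 1 plus the counts per 10000, was above 1 and above their own Pdgfrb level.

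All cells are labelled as female, although the study's reporting notes give both sexes for its sequencing experiments, and came from adult mice of the genotype GLAST-CreERT2;R26R-tdTomato;Pdgfrb-eGFP, so controls and injured animals shared the same 3 transgenes. GLAST-CreERT2 places a tamoxifen-inducible Cre under the control of the gene for the glutamate transporter GLAST (Slc1a3), R26R-tdTomato turns that recombination into a permanent red label, and Pdgfrb-eGFP marks PDGFRβ-expressing cells green. Tamoxifen was given and cleared before the injury. The red label therefore records GLAST promoter activity before the crush, not afterwards, and a GLAST-lineage cell that did not recombine falls into the tdTomato- sort. The injured group received a complete crush of the thoracic cord, from which the lesion segment was dissected, freed of its outer meninges, dissociated and sorted. The uninjured group of the same genotype, on plates 209 and 213, was not crushed and is given beside the 3-day values where the contrasts differ. No plate held both injured and uninjured cells, so injury and plate cannot be told apart between those groups, whereas both sorts of cell were on every plate.

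Blood vessels of the central nervous system are wrapped by several PDGFRβ-expressing cell types. Pericytes sit in the basement membrane of capillaries and respond to vasoactive signals through potassium channels and G protein-coupled receptors. Vascular smooth muscle cells (vSMCs) contract around arterioles, and perivascular fibroblasts lie outside them on larger vessels and produce collagens and small proteoglycans. After a spinal cord lesion, PDGFRβ-expressing stromal cells leave the vessel wall, divide and deposit a fibrotic matrix, and part of that matrix-producing population derives from GLAST-lineage perivascular cells.

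Expression was measured in single cells by Smart-seq3, a full-length, plate-based RNA-seq method. The median number of counts per cell was 328802.5 in the tdTomato+EGFP+ cells and 182124 in the tdTomato-EGFP+ cells of plate 211, against 14770 and 274401 on plate 215. The plate 215 tdTomato+EGFP+ cells were therefore the shallowest, and 5 of these 34 cells held 73.6% of their 1677209 counts. Because of this imbalance plate 211 supplied 94.6% of all tdTomato+EGFP+ counts, and differences were taken within each plate and averaged with equal weight. The labels name no animals, so each sorted population is 1 sample and no test was possible. Cells were summed by plate and population, scaled to CPM (counts per 1000000), and compared as a difference of log2(CPM + 1), tdTomato+EGFP+ minus tdTomato-EGFP+. These summed levels cannot tell fewer cells of a type from less RNA per cell. In place of a test, a gene counted as measured at 10 CPM or more in the higher population on each plate, and as past the bound when it differed 2-fold or more (1 on the log2 scale) in the same direction on both plates. Intervals are exact 95% intervals of the counts or of the share of cells and cover counting error only, since amplified reads are not independent molecules and the sources used here do not say whether molecules were counted.

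The lineage driver itself separated the sorted populations. Slc1a3 stood at 202 CPM (interval 196 to 207) in the tdTomato+EGFP+ and 12.5 CPM (10.6 to 14.7) in the tdTomato-EGFP+ cells of plate 211, and at 293 CPM (268 to 320.5) against 9.07 CPM (7.54 to 10.8) on plate 215. Both tdTomato+EGFP+ values exceeded both tdTomato-EGFP+ values, and 1 cell held 60.8% of the tdTomato-EGFP+ counts on plate 211. After each cell was thinned to 10000 counts, Slc1a3 was detected in 55.7% of tdTomato+EGFP+ cells (44.7 to 66.3%) and 8.62% of tdTomato-EGFP+ cells (2.86 to 18.98%) on plate 211, and in 63.2% (38.4 to 83.7%) and 8.89% (2.48 to 21.2%) on plate 215. The transcript was thus not detected at this depth in every cell with the lineage mark. Pdgfrb, the receptor whose reporter defined the green gate, was detected in 97.8% or more of the thinned cells of each population. Its level was 1216 CPM in the tdTomato+EGFP+ and 2989 CPM in the tdTomato-EGFP+ cells of plate 211, and 1167 and 2038 CPM on plate 215. Pdgfrb entered the cell filter, so these values are a description.

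The labelled cell type, perivascular cells, was checked against other cells of the cord. Microglial and macrophage markers summed to between 17.6 and 69.8 CPM over 12 genes in the 4 populations, and Ptprc, the pan-leukocyte antigen, reached at most 1.23 CPM. The astrocyte markers Gfap and Aqp4 stayed at or below 3.69 and 0.407 CPM in the 3-day populations, and Aqp4 was at 0 in both of plate 215. The 10 astrocyte genes summed to 101.4 against 250.3 CPM on plate 211 and 125.2 against 335 CPM on plate 215, of which Atp1b2, Ndrg2, Sox9 and Aldh1l1, the 4 that were measured, were past the bound in both directions, 2 each way. Of the oligodendrocyte, neuronal, ependymal and Schwann cell lists at most 2 genes each were measured, and none of the lymphocyte, neutrophil or oligodendrocyte progenitor genes. The neuronal list still summed to between 383.3 and 667.8 CPM at 3 days, against 59.4 to 111.97 CPM in uninjured cells. Schwann cell genes summed to 149.65 to 316.4 CPM at 3 days (229.4 to 403.55 CPM uninjured). Ependymal genes summed to 88.2 to 270.55 CPM (223.9 to 332.03 CPM uninjured), and oligodendrocyte genes to 82.3 to 210.5 CPM (118.1 to 199.04 CPM uninjured). The source of these counts was not tested. Endothelial genes were present at a higher level in one sort. Their 12-gene sum was 644.8 CPM in the tdTomato+EGFP+ and 4162 CPM in the tdTomato-EGFP+ cells of plate 211, and 286.8 and 3159 CPM on plate 215. Of 12 endothelial genes, 11 were past the bound towards tdTomato-EGFP+, among them the tight-junction gene Cldn5 (121.98 against 1195 CPM on plate 211, 0 against 536 CPM on plate 215) and the VEGF receptor Flt1 (24.8 against 216 CPM on plate 211 and 32.2 against 245 CPM on plate 215). Cdh5 (VE-cadherin) was the exception, at 171 against 86.5 CPM on plate 211 and 160.4 against 102.9 CPM on plate 215. The median log2 difference of the list was -3.04 on plate 211 and -5.86 on plate 215, or -4.99 there with the 6 members without tdTomato+EGFP+ counts set at 3 counts. In the uninjured cells this list was at 1.02% to 1.35% of the counts of the median cell in every population, against 0.0229% to 0.0238% in tdTomato+EGFP+ and 0.136% to 0.164% in tdTomato-EGFP+ cells at 3 days. Pecam1 is an endothelial gene and entered the cell filter, so the endothelial values are a description. Without the Pecam1 rule 11 genes were past the bound towards tdTomato-EGFP+, with a list median of -4.48, against -4.29 with it. In uninjured cells the rule had removed 12 tdTomato+EGFP+ and 6 tdTomato-EGFP+ cells of plate 209, and 9 and 5 of plate 213. The part of endothelial RNA in the other differences towards tdTomato-EGFP+ was not tested.

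Genome-wide, 9642 genes were measured on both plates. Of these 358 (3.71%) were past the bound towards tdTomato+EGFP+ and 1132 (11.7%) towards tdTomato-EGFP+. At 4-fold or more on both plates the counts were 83 and 426, and at 16-fold or more 6 and 52. Most genes past the bound on plate 211 had the same sign on plate 215, namely 1976 of 2070 (95.5%). More genes, 2792, were past the bound on plate 215, so many were past it on that plate only. Pearson's r across genes was 0.80, a description only, as genes are not independent replicates. Only 20 genes lay past the bound in opposite directions. The median of all measured genes was not 0 but -0.20 (-0.17 on plate 211, -0.22 on plate 215). It became 0.03 with trimmed mean of M-values (TMM) factors and -0.02 with DESeq2 size factors, and the share of past-bound genes that were higher in tdTomato+EGFP+ then moved from 24.03% to 40.9% and 37.6%. The list medians are to be read against this shift, and counts of list members against the shares 3.71% and 11.7%, since a few members past the bound in a list of ordinary size is close to those shares.

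**Figure D1:**
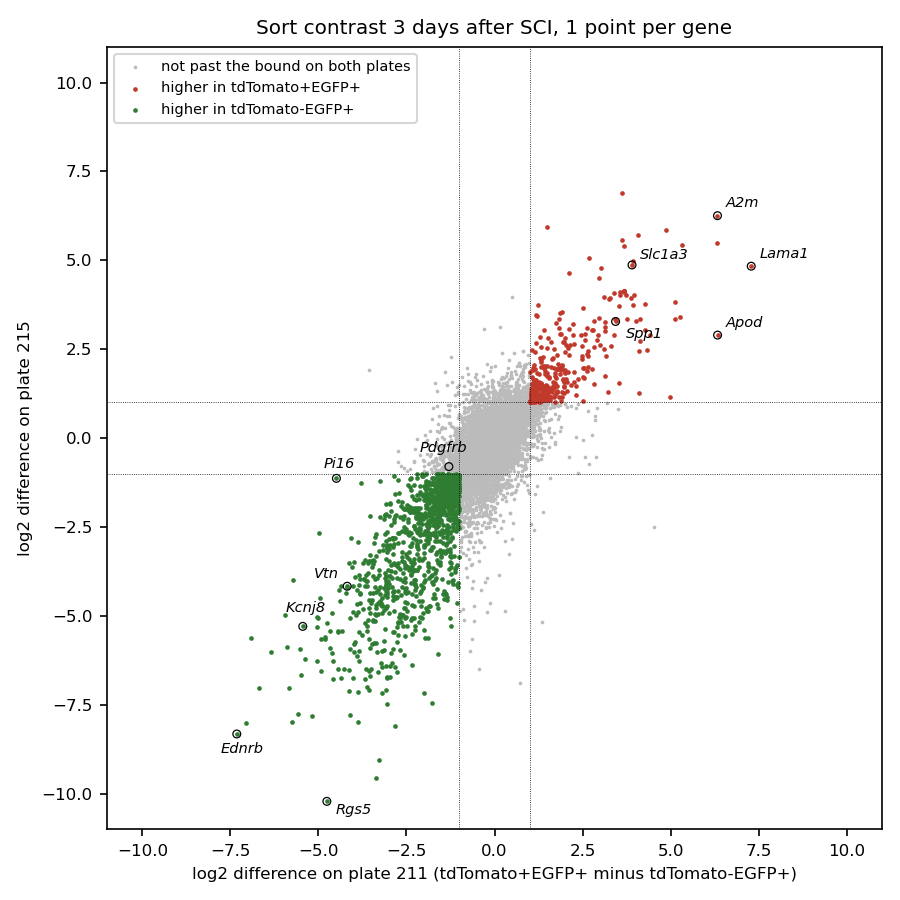
Each point is 1 of 9642 measured genes, with its log2 difference (tdTomato+EGFP+ minus tdTomato-EGFP+) on plate 211 on the x axis and on plate 215 on the y axis, and dotted lines at the 2-fold bound. The 358 genes past the bound towards tdTomato+EGFP+ (red) include 6 genes at 16-fold or more on both plates and the 1132 towards tdTomato-EGFP+ (green) include 52, and 20 genes lie past the bound in opposite directions. A gene at 0 counts is drawn with 1 CPM added to its level of 0.

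Of the 15 top-ranked genes higher in tdTomato+EGFP+ cells, 9 belonged to the Ugt1a locus and the others were A2m, Ms4a4d, Frzb, Lama1, Slc1a3 and Dio2. A2m, a broad-spectrum protease inhibitor, had 145.3 CPM in the tdTomato+EGFP+ and 0.82 CPM in the tdTomato-EGFP+ cells of plate 211, and 212 and 1.79 CPM on plate 215. Its log2 differences were 6.33 and 6.25, and it was detected in 31.8% and 42.1% of thinned tdTomato+EGFP+ cells, against 0% (0 to 6.16%) and 2.22% of the others. A minority of the lineage cells therefore carried this transcript at that depth. Lama1, the laminin α1 chain of basement membranes, stood at 181 against 0.164 CPM on plate 211 and 274 against 8.63 CPM on plate 215. It was found in 57.96% and 68.4% of the thinned tdTomato+EGFP+ cells, and its plate 211 ratio, which rests on 2 tdTomato-EGFP+ counts, was 1103 with a counting interval of 305 to 9111. Frzb, a secreted Wnt antagonist, was at 145.4 against 2.62 CPM on plate 211 and 289 against 5.73 CPM on plate 215. Ms4a4d, a membrane protein of the MS4A family, measured 92 and 225 CPM in tdTomato+EGFP+ cells and 0.164 and 4.09 CPM in the others. Dio2, which converts thyroxine to the active thyroid hormone, was at 91.1 against 5.33 CPM on plate 211 and 145.5 against 8.63 CPM on plate 215, whereas uninjured cells had less of it in the tdTomato+EGFP+ sort (3.17 against 49.1 CPM on plate 209 and 0.672 against 7.23 CPM on plate 213). For each of these 5 genes both 3-day tdTomato+EGFP+ values lay above both tdTomato-EGFP+ values. The genes were ranked by their differences on both plates, so this ordering is no separate support.

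The 9 symbols of the Ugt1a locus encode UDP-glucuronosyltransferases, which conjugate small molecules for export. They share their 3' exons, and 7 of them had nearly the same summed values, such as 76.5 against 5.08 CPM for Ugt1a2 and 76.4 against 5.08 CPM for Ugt1a10 on plate 211. Ugt1a7c (105.4 against 7.95 CPM on plate 211 and 118.1 against 6.32 CPM on plate 215) and Ugt1a6a (87.6 against 5.66 CPM on plate 211 and 97.2 against 4.98 CPM on plate 215) were higher in both sorts. Reads of the shared exons cannot be assigned to 1 symbol, so single members are uncertain. The genes ranked next were looked up after the values were seen. Spp1 (osteopontin), a secreted phosphoprotein of wounds and bone, was at 24552 against 2268 CPM on plate 211 and 6764 against 696 CPM on plate 215. Within plate 211 the median tdTomato+EGFP+ cell had 9651 CPM of Spp1 and the median tdTomato-EGFP+ cell 21.1 CPM, although the highest cells of both sorts overlapped at 175878 and 104880.4 CPM. Tfpi2, a serine protease inhibitor of the matrix, was at 809 against 44.9 CPM on plate 211 and 786 against 76.6 CPM on plate 215. Apod, a lipid-binding apolipoprotein, was at 7622 against 93.6 CPM on plate 211 and 1861 against 249 CPM on plate 215, and its difference was larger on plate 211 (6.33) than on plate 215 (2.90). Enpp1, an ectoenzyme that makes pyrophosphate, and the phosphate transporter Slc20a1 had log2 differences of 2.97 and 3.36 and of 3.14 and 3.01. Ptgs2 (cyclooxygenase-2), the inducible enzyme of prostaglandin synthesis, was at 278 against 50.1 CPM on plate 211 and 482 against 63.7 CPM on plate 215.

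The genes ranked highest towards tdTomato-EGFP+ included receptors, channel subunits and secreted proteins. Ednrb, the endothelin B receptor, had 2.24 CPM in the tdTomato+EGFP+ and 516 CPM in the tdTomato-EGFP+ cells of plate 211, and 0 and 319.8 CPM on plate 215. With the 0 set at 3 counts, or 1.79 CPM, Ednrb was 179-fold higher in the tdTomato-EGFP+ cells of that plate. Aspn, a small leucine-rich proteoglycan, and Casq2, a calcium buffer of the sarcoplasmic reticulum, had 208 and 264 CPM in the tdTomato-EGFP+ cells of plate 211, against 2.68 and 3.9 CPM in tdTomato+EGFP+ cells. Both were at 0 counts in the plate 215 tdTomato+EGFP+ cells. Sfrp4, a secreted Wnt modulator, was at 33.4 against 2113 CPM on plate 211 and 22.1 against 726 CPM on plate 215. Gper1, a membrane estrogen receptor, was at 16.1 against 435 CPM on plate 211 and 7.15 against 488 CPM on plate 215. Art3, an ADP-ribosyltransferase family member, was at 14.2 against 554 CPM on plate 211 and 0.596 against 359 CPM on plate 215. In all of these the 2 tdTomato-EGFP+ values lay above both tdTomato+EGFP+ values, which the ranking on both plates largely sets.

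**Figure D2:**
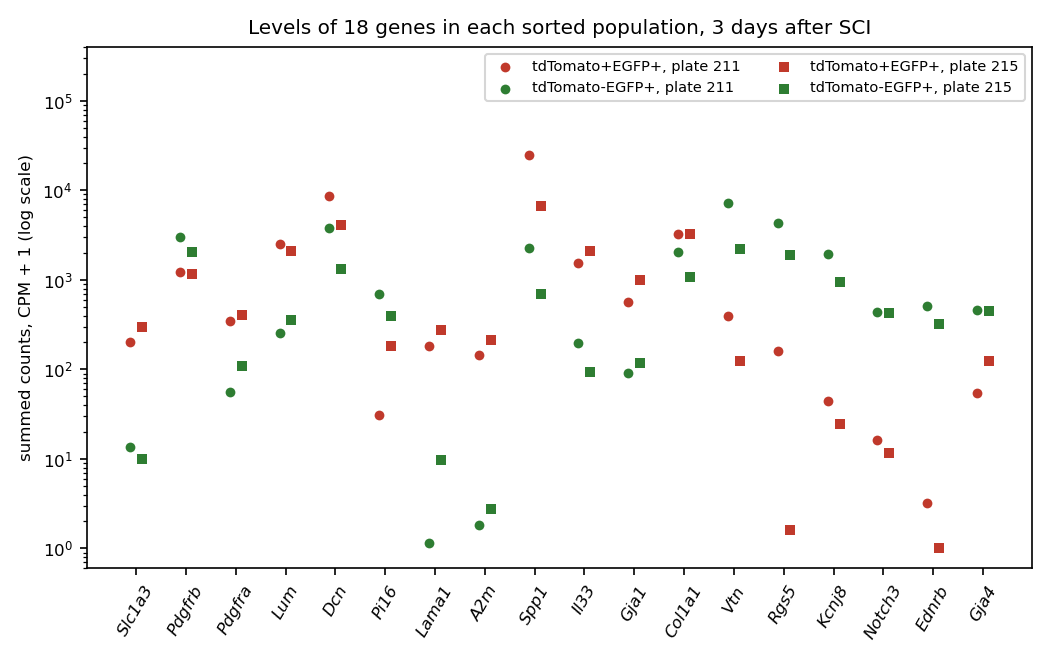
Points give the summed level of 18 genes as CPM + 1 on a log axis, in tdTomato+EGFP+ (red) and tdTomato-EGFP+ (green) cells of plate 211 (circles) and plate 215 (squares), to be compared within a gene and not between genes. Slc1a3, Pdgfra, Lum, Dcn, Lama1, A2m, Spp1, Il33, Gja1 and Col1a1 are higher in red on both plates, Col1a1 inside the bound on plate 211. The genes from Vtn to Gja4 are higher in green, and so are Pi16 and Pdgfrb.

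Pericyte identity genes were low in tdTomato+EGFP+ cells at 3 days. All 12 were measured, 11 were past the bound towards tdTomato-EGFP+ and none the other way, and the median log2 difference was -4.47 on plate 211 and -4.99 on plate 215. Kcnj8, the pore of the pericyte ATP-sensitive potassium channel, had 43.1 CPM (interval 40.8 to 45.6) in the tdTomato+EGFP+ and 1922 CPM (1898 to 1947) in the tdTomato-EGFP+ cells of plate 211, and 23.3 CPM (16.5 to 31.8) and 953 CPM (937 to 969.9) on plate 215. Its partner subunit Abcc9 was at 24.6 against 843 CPM on plate 211 and 4.17 against 396 CPM on plate 215. Kcnj8 was detected in 13.6% and 10.5% of thinned tdTomato+EGFP+ cells, against 74.1% and 66.7% of tdTomato-EGFP+ cells. Rgs5, a regulator of G protein signalling, was at 160.2 against 4370.1 CPM on plate 211 and 0.596 against 1903 CPM on plate 215. The plate 215 tdTomato+EGFP+ value of Rgs5 is a single count. Vtn (vitronectin), an adhesive glycoprotein, was at 394 against 7174 CPM on plate 211 and 123.4 against 2237 CPM on plate 215. The proteoglycan Cspg4 (NG2) was at 49.3 against 595 CPM on plate 211 and 19.1 against 553 CPM on plate 215. Among further markers of brain mural cells, Ndufa4l2 was at 28.8 against 363 CPM on plate 211 and 16.7 against 314 CPM on plate 215. Higd1b had 5.02 against 286 CPM on plate 211. On plate 215 the tdTomato+EGFP+ cells had 0 counts, and with these set at 3 counts Higd1b was 120.9-fold higher in tdTomato-EGFP+ cells. Atp13a5 had 3.97 against 207 CPM on plate 211, and on plate 215 a ratio of 114.6 towards tdTomato-EGFP+ (39.2 to 556) from 3 tdTomato+EGFP+ counts. The remaining genes of the list past the bound were Cd248 (endosialin), S1pr3 and Notch3. Anpep (CD13) missed the bound on plate 215, at 27.4 against 115.1 CPM on plate 211 and 75.1 against 115.4 CPM on plate 215. In uninjured cells none of the 12 was past the bound in either direction, with list medians of -0.05 and -0.32 on plates 209 and 213, and Kcnj8 was at 1741 against 1668 CPM on plate 209 and 1320.4 against 1703 CPM on plate 213.

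Receptors through which mural cells sense vasoactive signals were also low in the lineage cells. Of 23 such genes 16 were measured, and 13 were past the bound towards tdTomato-EGFP+ and none towards tdTomato+EGFP+, against 11.7% and 3.71% of all measured genes. The list median was -2.54 on plate 211 and -3.17 on plate 215, with a median of plate means of -2.91, or -2.68 with genes at 0 counts set at 3 counts. Beside Ednrb they included Ednra, the endothelin A receptor (69.6 against 386 CPM on plate 211 and 66.8 against 274 CPM on plate 215), and Tbxa2r, the thromboxane receptor (7.98 against 193 CPM on plate 211 and 7.75 against 167.4 CPM on plate 215). Gucy1a1 and Gucy1b1, the subunits of the nitric oxide sensor guanylate cyclase, were at 8.28 against 144.9 CPM and 33.2 against 497 CPM on plate 211, and at 1.19 against 116.8 CPM and 2.38 against 474 CPM on plate 215. The adenosine receptor Adora2a and the sphingosine 1-phosphate receptor S1pr3 had log2 differences of -3.20 and -4.51 and of -2.63 and -3.22. The uninjured list medians were -0.03 and -0.09, with no gene past the bound.

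Contractile genes of vSMCs gave a mixed picture at 3 days. Of 14 genes 10 were measured, and 5 were past the bound towards tdTomato-EGFP+, namely Casq2, Myh11, Mylk, Myl9 and Sncg. Myh11, the smooth muscle myosin heavy chain, was at 3.26 against 51.4 CPM on plate 211 and 2.38 against 130.8 CPM on plate 215, but 1 cell held 68.4% of the plate 215 tdTomato-EGFP+ counts. Mylk, the kinase that activates myosin, was at 85.5 against 628 CPM on plate 211 and 86.5 against 687 CPM on plate 215. The value of Sncg rests on 1 cell on each plate, with 81.4% and 84.5% of the counts, and without that cell its mean log2 difference was 0.14. Acta2 (smooth muscle actin) was not separated on both plates, at 966 against 2148 CPM on plate 211 and 1168 against 1109 CPM on plate 215. Tagln (SM22α) was at 269 against 194 CPM on plate 211 and 501 against 276 CPM on plate 215, also inside the bound, whereas in uninjured cells both were past it towards tdTomato-EGFP+ (Acta2 at 282 against 1045 CPM on plate 209 and 278 against 760.5 CPM on plate 213, Tagln at 58.9 against 389 CPM on plate 209 and 93.8 against 287 CPM on plate 213). Of the 14 genes, 9 were past the bound towards tdTomato-EGFP+ in uninjured cells.

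The Notch pathway, in which ligands on one cell activate receptors and Hey-family targets in the neighbour, had members past the bound in 1 direction. Of 12 genes 10 were measured, and 7 were past the bound towards tdTomato-EGFP+ and none towards tdTomato+EGFP+. The receptor Notch3, which mural cells depend on, was at 15.3 against 441 CPM on plate 211 and 10.7 against 431 CPM on plate 215. Among the targets, Heyl had 17.2 against 154.3 CPM on plate 211 and 0 against 135.8 CPM on plate 215, or 75.9-fold with the 0 set at 3 counts. Hey1 and Hey2 had 5.53 against 28.9 CPM and 4.41 against 30.5 CPM on plate 211. The others were the receptor Notch1 (log2 differences of -2.17 and -2.67), the ligand Dll4, which endothelial cells also make (1.53 against 11.4 CPM on plate 211), and the feedback inhibitor Nrarp (3.33 against 45.98 CPM). List medians were -2.24 and -3.67, and -3.21 on plate 215 with genes at 0 counts set at 3 counts. In uninjured cells they were -0.40 and -0.17 with none past the bound.

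Perivascular fibroblast genes split between the sorts. All 12 were measured, 3 were past the bound towards tdTomato+EGFP+ and 5 towards tdTomato-EGFP+. Lum (lumican), a keratan sulfate proteoglycan of collagen fibrils, was at 2529.6 against 254 CPM on plate 211 and 2127 against 355 CPM on plate 215. Dcn (decorin), which binds the same fibrils, was at 8625 against 3795 CPM on plate 211 and 4081 against 1314 CPM on plate 215. Pdgfra, the receptor that marks fibroblasts, was at 346 against 55.6 CPM on plate 211 and 407 against 109.1 CPM on plate 215, and was detected in 80.7% and 73.7% of thinned tdTomato+EGFP+ cells against 24.1% and 20% of tdTomato-EGFP+ cells. All 3 were higher in the tdTomato+EGFP+ value of each plate, as being past the bound requires. In the other direction stood Pi16, a marker of resting adventitial fibroblasts, at 29.98 against 695 CPM on plate 211 and 181 against 399 CPM on plate 215, with 55.7% of the plate 211 tdTomato-EGFP+ counts in 1 cell. Cd34, a sialomucin of stromal and endothelial cells, was at 75.4 against 374 CPM on plate 211 and 25.6 against 419 CPM on plate 215, Ly6a (Sca-1), with the same distribution, at 111.4 against 759.9 CPM on plate 211 and 31 against 493 CPM on plate 215, and the actin-severing protein Gsn at 776 against 2063 CPM on plate 211 and 292 against 1093 CPM on plate 215. The tetranectin gene Clec3b was at 11.5 against 89.8 CPM on plate 211 and 7.75 against 99.2 CPM on plate 215, and 1 cell held 65.2% and 51.01% of its tdTomato-EGFP+ counts on the plates. Fbln1, Mfap5, Fmod and Dpt were past the bound in neither direction, and the list median was -0.29 on plate 211 and -0.77 on plate 215. Lum, Pdgfra and Fmod were also past the bound towards tdTomato+EGFP+ in uninjured cells.

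Genes typical of meningeal fibroblasts were more often past the bound towards tdTomato-EGFP+. Of 12 such genes 11 were measured, 5 were past the bound towards tdTomato-EGFP+, and 1, Aldh1a2, which makes retinoic acid, towards tdTomato+EGFP+ (674 against 168.6 CPM on plate 211 and 615 against 173 CPM on plate 215). Crabp2, a retinoic acid-binding protein, was at 1.22 against 180.4 CPM on plate 211 and 0.596 against 103.1 CPM on plate 215, and Slc47a1, an organic cation exporter, at 1.19 against 226 CPM on plate 211 and 1.19 against 288 CPM on plate 215. The plate 215 tdTomato+EGFP+ values of both rest on 1 or 2 counts, and 1 cell held 51.01% of the plate 215 tdTomato-EGFP+ counts of Crabp2. Ogn (osteoglycin) and Mgp (matrix Gla protein) had log2 differences of -2.53 and -4.61 and of -1.23 and -1.38. Dpp4, a cell-surface peptidase, was at 2.92 against 22.05 CPM on plate 211, and 1 cell held 62.1% and 55.6% of its tdTomato-EGFP+ counts on the plates.

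Cell by cell, nearly all tdTomato+EGFP+ cells had more counts in the fibroblast than in the pericyte list, and the tdTomato-EGFP+ cells were mixed. Among cells with 10000 or more counts, the pericyte list took 0.0307% of the counts of the median tdTomato+EGFP+ cell and 1.59% of the median tdTomato-EGFP+ cell on plate 211, and 0.0302% and 0.971% on plate 215. The perivascular fibroblast list took 0.912% and 0.313% on plate 211, and 0.801% and 0.243% on plate 215. Its share ranged from 0.0575% to 7.93% among the tdTomato+EGFP+ cells of plate 211. The fibroblast share exceeded the pericyte share in 84 of 88 tdTomato+EGFP+ cells on plate 211 (95.5%, interval 88.8 to 98.7%) and in 19 of 19 on plate 215 (100%, 82.4 to 100%). In tdTomato-EGFP+ cells it did so in 17 of 58 (29.3%, 18.1 to 42.7%) and 15 of 45 (33.3%, 20 to 48.95%). These are ranges cut from a score, not cell types, but few cells lay within 2-fold of equal shares (3 and 0 tdTomato+EGFP+ cells, and 3 and 2 tdTomato-EGFP+ cells, on plates 211 and 215). In uninjured cells the fibroblast share exceeded the pericyte share in 15.9% and 23.4% of the lineage-marked cells of plates 209 and 213, against 15% and 9.43% of the others.

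**Figure D3:**
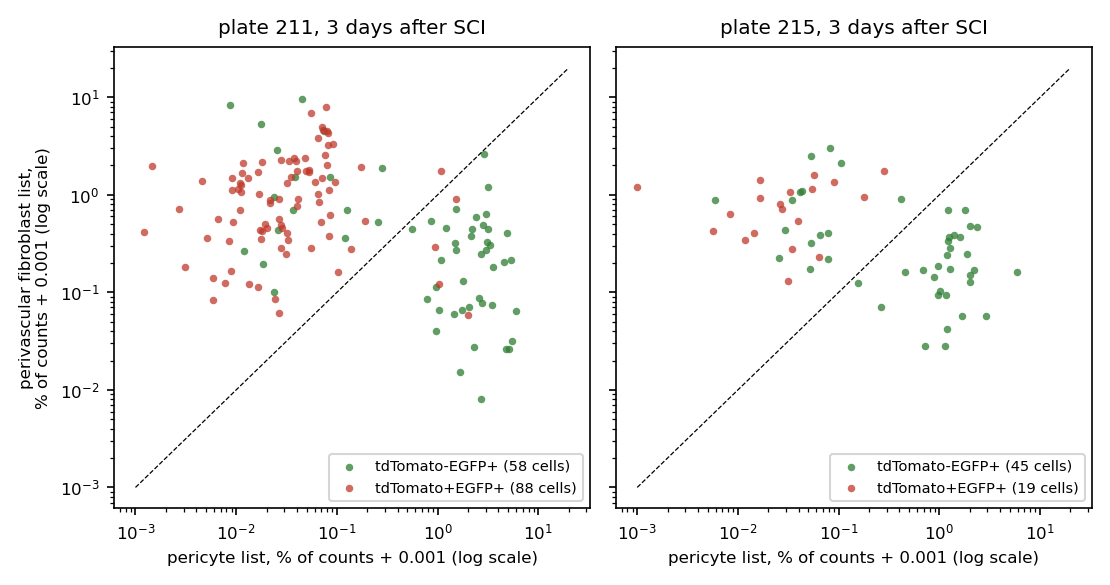
Each point is 1 cell with 10000 or more counts, with the percent of its counts in the 12-gene pericyte list on the x axis and in the 12-gene perivascular fibroblast list on the y axis, both plus 0.001 on log axes, and the dashed line marks equal shares. On both plates the tdTomato+EGFP+ cells (red) sit above the line with few exceptions, while the tdTomato-EGFP+ cells (green) lie on both sides of it.

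Collagens that form the fibrotic matrix mostly stayed inside the bound in their sums, although the typical cells of the sorts differed. All 10 fibrillar and type VI collagen genes were measured, and only Col5a1, the fibril-nucleating α1(V) chain, was past the bound (125.8 against 58.1 CPM on plate 211 and 216 against 92.2 CPM on plate 215). Col1a1, the main fibrillar chain, was at 3219 against 2069 CPM on plate 211 and 3239 against 1079.7 CPM on plate 215, and Col3a1 at 4764 against 4044 CPM on plate 211 and 4869 against 1890 CPM on plate 215. On plate 211 the tdTomato-EGFP+ sums came from few cells, since 1 cell held 34.2% of the Col1a1 counts, and the median cell had 2462 CPM of Col1a1 among tdTomato+EGFP+ and 7.72 CPM among tdTomato-EGFP+ cells. On plate 215 these medians were 2527 and 32.6 CPM. The list took 1.05% and 1.11% of the counts of the median tdTomato+EGFP+ cell, against 0.137% and 0.185% of the median tdTomato-EGFP+ cell. Its median log2 difference in the sums was 0.34 on plate 211 and 0.94 on plate 215. Of the enzymes that process and crosslink collagen 13 were measured, and Loxl1, a lysyl oxidase, was the single one past the bound (112.2 against 44.5 CPM on plate 211 and 293 against 101.2 CPM on plate 215). Of 8 other collagens measured, Col14a1 and Col8a2 were past it towards tdTomato-EGFP+, with Col14a1, which sits on fibril surfaces, at 21.4 against 91.1 CPM on plate 211 and 8.94 against 179.7 CPM on plate 215.

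Basement membrane genes went both ways. Of 15 measured, 3 were past the bound towards tdTomato+EGFP+ and 5 towards tdTomato-EGFP+. Beside Lama1 the former were the minor collagen IV chains Col4a5 (48.8 against 11.7 CPM on plate 211 and 59.03 against 8.18 CPM on plate 215) and Col4a6 (26.04 against 5.25 CPM on plate 211 and 81.7 against 2.31 CPM on plate 215). On plate 215, 1 cell held 70.7% and 65.7% of their tdTomato+EGFP+ counts. The latter were the laminin chains Lama2 (85.1 against 205 CPM on plate 211 and 65.6 against 174 CPM on plate 215), Lama4, Lama5 and Lamb2 and the proteoglycan Agrn (49.8 against 243 CPM on plate 211 and 64.99 against 389 CPM on plate 215). The major collagen IV chains missed the bound on plate 215, with Col4a1 at 738 against 1852 CPM on plate 211 and 922 against 1649 CPM on plate 215 and Col4a2 at 151.8 against 470.0 CPM on plate 211 and 242 against 397 CPM on plate 215. The list medians were -0.63 and -0.71.

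Small leucine-rich proteoglycans were past the bound with 2 of 8 measured genes each way, Dcn and Lum towards tdTomato+EGFP+ and Ogn and Aspn towards tdTomato-EGFP+. Elastic fibre genes were divided as well, with 3 of 12 past the bound towards tdTomato+EGFP+ and 2 towards tdTomato-EGFP+. The microfibril genes Fbn1 (568 against 217 CPM on plate 211 and 568 against 233 CPM on plate 215) and Fbn2 (38.7 against 2.7 CPM on plate 211 and 37.6 against 2.75 CPM on plate 215) and the microfibril-associated Ltbp2 (128.1 against 26.6 CPM on plate 211 and 163.96 against 16.96 CPM on plate 215) were higher in tdTomato+EGFP+ cells. Eln (elastin) was at 7.03 against 419 CPM on plate 211 and 3.58 against 71.8 CPM on plate 215, with 85.2% of the plate 215 tdTomato-EGFP+ counts in 1 cell, and Ltbp4, a relative of Ltbp2 that assembles elastin, at 19.5 against 149.7 CPM on plate 211 and 7.75 against 189 CPM on plate 215.

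Matricellular proteins, many of which signal to cells, and adhesive glycoproteins formed 1 list that was more often past the bound towards tdTomato+EGFP+. Of 13 genes 11 were measured, 4 were past the bound towards tdTomato+EGFP+ and 1, Postn (periostin), towards tdTomato-EGFP+ (108.1 against 595 CPM on plate 211 and 42.3 against 208 CPM on plate 215). Beside Spp1 the 4 were Tgfbi, an integrin ligand induced by TGF-β (2450.2 against 436 CPM on plate 211 and 2585 against 552 CPM on plate 215), the large proteoglycan Vcan (201 against 52.04 CPM on plate 211 and 160.4 against 37.5 CPM on plate 215) and the thrombospondin Thbs1 (253 against 107.1 CPM on plate 211 and 1358 against 100.4 CPM on plate 215). The plate 215 value of Thbs1 had 77.1% of its counts in 1 cell. Tnc (tenascin-C) was at 959.9 against 516 CPM on plate 211 and 1525 against 637 CPM on plate 215 and so missed the bound on plate 211, and Fn1 (fibronectin) was at 1492 against 1328 CPM on plate 211 and 1204 against 1152 CPM on plate 215.

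Hyaluronan genes, whose products make, bind and cut this glycosaminoglycan, were past the bound only towards tdTomato+EGFP+ among the 10 of 11 measured. The 5 genes were the synthases Has1 (58.1 against 26.6 CPM on plate 211 and 61.4 against 22.8 CPM on plate 215), which in uninjured cells was past the bound the other way (0.124 against 46.2 CPM on plate 209 and 0.717 against 16.6 CPM on plate 213), and Has2 (90.2 against 3.77 CPM on plate 211 and 81.1 against 4.98 CPM on plate 215), the depolymerase Cemip (118.7 against 17.6 CPM on plate 211 and 168.1 against 4.09 CPM on plate 215), and the proteins that load inter-α-inhibitor chains on hyaluronan or carry them, Tnfaip6 (54.9 against 16.5 CPM on plate 211 and 71.5 against 17.5 CPM on plate 215) and Itih5 (663 against 319 CPM on plate 211 and 1278 against 389 CPM on plate 215). On plate 215, 1 cell held 50.7% of the Has2 and 55.6% of the Itih5 counts of the tdTomato+EGFP+ cells. The list median was 0.91 on plate 211 and 1.29 on plate 215. Of 10 measured matrix metalloproteinases and inhibitors, Mmp19 (144.9 against 45.3 CPM on plate 211 and 199 against 65.7 CPM on plate 215), Timp1 (835 against 388 CPM on plate 211 and 1094 against 407 CPM on plate 215) and Mmp10 were past it towards tdTomato+EGFP+ and none the other way. Mmp10 was at 16.4 against 0.41 CPM and 116.9 against 0 CPM, and 1 cell held 57.7% and 75.5% of the tdTomato+EGFP+ counts on the 2 plates.

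Integrins, the receptors that bind these matrices, had 3 members past the bound towards tdTomato-EGFP+ and 1 towards tdTomato+EGFP+. Of 10 measured, Itga1, a collagen receptor subunit (83.9 against 877 CPM on plate 211 and 14.3 against 423 CPM on plate 215), Itga7, a laminin receptor subunit (7.57 against 146.4 CPM and 0 against 219 CPM), and Itga4 (4.72 against 92.5 CPM on plate 211 and 1.79 against 81.3 CPM on plate 215) were the former. Itga8, which binds matrix ligands such as nephronectin, was the latter, at 38.6 against 10.2 CPM on plate 211 and 47.7 against 4.69 CPM on plate 215.

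Among chemokines and cytokines, single genes rather than whole lists separated the sorts. The alarmin Il33, a nuclear cytokine released on damage, was at 1554 against 198 CPM on plate 211 and 2126 against 92.1 CPM on plate 215. It was detected in 64.8% and 73.7% of thinned tdTomato+EGFP+ cells and in 17.2% and 11.1% of the others. Ccl7, a monocyte-attracting chemokine, was at 997 against 156.95 CPM on plate 211 and 885 against 179 CPM on plate 215, and its close relative Ccl2 at 966 against 541 CPM on plate 211 and 1513 against 367 CPM on plate 215, which is inside the bound on plate 211. Cxcl10, induced by interferon, was past the bound towards tdTomato-EGFP+ (21.05 against 65.8 CPM on plate 211 and 6.56 against 40.7 CPM on plate 215), but 1 cell held 89.7% of its plate 211 counts. The leukaemia inhibitory factor Lif (18.1 against 0.656 CPM on plate 211 and 39.9 against 12.9 CPM on plate 215) and its receptor Lifr (12.6 against 36.2 CPM on plate 211 and 10.1 against 40.8 CPM on plate 215) were past the bound in opposite directions, but 1 cell held 65.7% of the plate 215 Lif counts, and the mean CPM of single cells gave 0.21 for Lifr. Of the TGF-β, activin and BMP genes, 16 were measured. Inhba, which encodes the activin A subunit, was at 398 against 37.4 CPM on plate 211 and 688 against 39.8 CPM on plate 215, and the ligand Bmp7 at 77.7 against 8.2 CPM on plate 211 and 191 against 32.9 CPM on plate 215, both past the bound towards tdTomato+EGFP+. The ligand Tgfb1 (9.51 against 33.03 CPM on plate 211 and 3.58 against 33.2 CPM on plate 215) and the BMP antagonist Nbl1 (45.5 against 163.4 CPM on plate 211 and 57.2 against 300.1 CPM on plate 215) were past it towards tdTomato-EGFP+. On plate 215, 1 cell held 51.2% of the Inhba and 61.6% of the Bmp7 counts of the tdTomato+EGFP+ cells.

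PDGF genes, whose ligands recruit mural cells and fibroblasts, gave 1 of 6 measured towards tdTomato+EGFP+, the receptor Pdgfra, and 2 towards tdTomato-EGFP+. The ligand Pdgfa was at 37.5 against 111.9 CPM on plate 211 and 46.5 against 211 CPM on plate 215 and Pdgfb, made by endothelial cells, at 3.67 against 14.6 CPM on plate 211 and 0.596 against 26.5 CPM on plate 215. With the mean CPM of single cells the Pdgfb difference turned to 0.54. Among insulin-like growth factor genes 9 were measured, and the binding protein Igfbp6 (296 against 1354 CPM on plate 211 and 32.8 against 439 CPM on plate 215) and the scavenger receptor Igf2r (22.6 against 123.02 CPM on plate 211 and 26.8 against 104.9 CPM on plate 215) were past the bound towards tdTomato-EGFP+. Igf2 itself went in opposite directions on the 2 plates, at 24.6 against 303 CPM on plate 211 and 135.3 against 35.2 CPM on plate 215. Of the Wnt modulators, Dkk2 (61.9 against 24.7 CPM on plate 211 and 164.6 against 33.5 CPM on plate 215) joined Frzb on the tdTomato+EGFP+ side, whereas Dkk3 (75.8 against 159.98 CPM on plate 211 and 45.3 against 272 CPM on plate 215) and Sfrp2 joined Sfrp4 on the other, among 12 measured. On plate 215, 1 cell held 51.1% of the Dkk2 counts of tdTomato+EGFP+ cells and 58.7% of the Sfrp2 counts of tdTomato-EGFP+ cells. Of 9 measured angiogenic factors, Fgf7, a growth factor for epithelia (89.1 against 10.7 CPM on plate 211 and 100.2 against 12.6 CPM on plate 215), and midkine, Mdk (103.9 against 41.1 CPM on plate 211 and 239.7 against 39.7 CPM on plate 215), were past the bound towards tdTomato+EGFP+, and placental growth factor, Pgf (4.35 against 116.1 CPM on plate 211 and 0.596 against 67.5 CPM on plate 215), and Fgf1 (2.21 against 25.3 CPM on plate 211 and 1.79 against 35.2 CPM on plate 215) towards tdTomato-EGFP+.

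Of 35 transcription factors tied to stromal lineages 23 were measured, with 6 past the bound towards tdTomato-EGFP+ and 1 towards tdTomato+EGFP+. Epas1 (HIF-2α), an oxygen-regulated factor, was at 138.8 against 1166 CPM on plate 211 and 134.2 against 1164 CPM on plate 215, Ebf1, active in mural and adipose lineages, at 80.6 against 346 CPM on plate 211 and 76.9 against 341 CPM on plate 215, and Tbx2 at 3.09 against 41.8 CPM and 0 against 34.7 CPM. Foxs1, Mef2c and Snai2 were the others, with log2 differences of -1.02 and -3.34, of -4.07 and -2.80 and of -1.03 and -1.39. Meox1, a homeobox factor of activated fibroblasts, was at 21.05 against 4.26 CPM on plate 211 and 10.1 against 2.75 CPM on plate 215, with 52.9% of its plate 215 tdTomato+EGFP+ counts in 1 cell. Its difference became -0.050 when each cell was thinned to 10000 counts.

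Retinoid genes gave 3 of 13 measured towards tdTomato+EGFP+ and 2 towards tdTomato-EGFP+. Those that make or oxidise retinoids were on the former side, namely Aldh1a2, Aldh1a3 (299 against 17.6 CPM on plate 211 and 270.1 against 26.9 CPM on plate 215) and Cyp1b1 (252 against 67.5 CPM on plate 211 and 403 against 105.8 CPM on plate 215). The binding protein Crabp2 and the reductase Dhrs3, which returns retinal to retinol (22.4 against 111.1 CPM on plate 211 and 10.7 against 205 CPM on plate 215), were on the latter.

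Transporters of glutamate, glycine and GABA also divided, 3 and 3 of 9 measured. With Slc1a3 on the tdTomato+EGFP+ side stood the GABA transporter Slc6a13 (73.2 against 11.9 CPM on plate 211 and 79.3 against 19.4 CPM on plate 215) and the cystine-glutamate exchanger Slc7a11 (189 against 56.8 CPM on plate 211 and 218 against 64.3 CPM on plate 215). The neuronal-type glutamate transporter Slc1a1 (1.29 against 12.4 CPM on plate 211 and 0.596 against 42.5 CPM on plate 215), the neutral amino acid carrier Slc1a4 (18.7 against 75.2 CPM on plate 211 and 13.1 against 73.7 CPM on plate 215) and the proline and glycine-betaine carrier Slc6a20a (8.86 against 80.2 CPM on plate 211 and 0.596 against 167.7 CPM on plate 215) were on the other. On plate 215, 1 cell held 55.6%, 56.99% and, for tdTomato-EGFP+ cells, 58.7% of the counts of Slc6a13, Slc7a11 and Slc1a1. Gap junction genes were divided by subunit. Gja1 (connexin 43), which couples fibroblasts and astrocytes, was at 568 against 90.5 CPM on plate 211 and 1004 against 117.5 CPM on plate 215, and was detected in 86.4% and 94.7% of thinned tdTomato+EGFP+ cells against 20.7% and 37.8% of the others. The vascular connexins Gja4 (53.5 against 457 CPM on plate 211 and 124.02 against 449 CPM on plate 215) and Gjc1 (34.2 against 391 CPM on plate 211 and 13.1 against 333 CPM on plate 215) were higher in tdTomato-EGFP+ cells.

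Cytosolic ribosomal protein genes all pointed towards tdTomato+EGFP+. Of 86 genes 79 were measured, all 79 were higher in tdTomato+EGFP+ on both plates, and 46 were past the bound, against 3.71% of all measured genes in that direction. The median log2 difference was 1.16 on plate 211 and 1.07 on plate 215, just beyond the bound, so the count of 46 depended on the scaling and was 72 with TMM factors and 72 with DESeq2 size factors. Rplp0, of the ribosomal stalk, was at 4286 against 1952 CPM on plate 211 and 2825 against 1191 CPM on plate 215. Rps3, of the small subunit, was at 2355 against 949 CPM on plate 211 and 2033 against 899 CPM on plate 215, and Rpl13, of the large subunit, missed the bound on plate 211 at 1627 against 875 CPM on plate 211 and 884 against 393 CPM on plate 215. The list took 7% of the counts of the median tdTomato+EGFP+ cell and 3.05% of the median tdTomato-EGFP+ cell on plate 211, and 6.87% and 2.78% on plate 215. In uninjured cells the medians lay between 1.27% and 1.77%, with list medians of 0.14 and 0.39 and no gene past the bound. Ribosomal protein genes share reads with near-identical pseudogenes, so single members are uncertain. Respiratory chain genes, another list of housekeeping subunits, had medians of 0.25 and 0.22 (-0.10 with the counts of both plates summed), and 1 of 76 was past the bound each way.

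Mitotic genes took a larger share of the typical tdTomato+EGFP+ cell, but their sums differed less. All 15 were measured, 12 were higher in tdTomato+EGFP+ on both plates, and only Birc5 (survivin), a chromosomal passenger, was past the bound (144.8 against 55.2 CPM on plate 211 and 154.4 against 65.6 CPM on plate 215). The count of 1 depended on the processing and was 4 with TMM factors, 3 with DESeq2 size factors, 5 with both plates summed and 0 with the mean CPM of single cells. The list median was 0.65 on plate 211 and 1.13 on plate 215. Birc5 was detected in 55.7% and 52.6% of thinned tdTomato+EGFP+ cells, and the tdTomato-EGFP+ shares were 22.4% and 22.2%. The list took 0.121% and 0.0646% of the counts of the median tdTomato+EGFP+ cell, and 0.00394% and 0.00635% of the median tdTomato-EGFP+ cell, although the highest tdTomato-EGFP+ cells reached 1.59% and 0.642%. The proliferation antigen Mki67 was at 77.9 against 114.1 CPM on plate 211 and 60.2 against 40.7 CPM on plate 215, and Cdk1, the mitotic kinase, at 176 against 153.9 CPM on plate 211 and 224 against 85.3 CPM on plate 215. Of 16 DNA replication genes none was past the bound, with medians of 0.17 and 0.30. No mitotic gene reached 10 CPM on both uninjured plates.

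**Figure D4:**
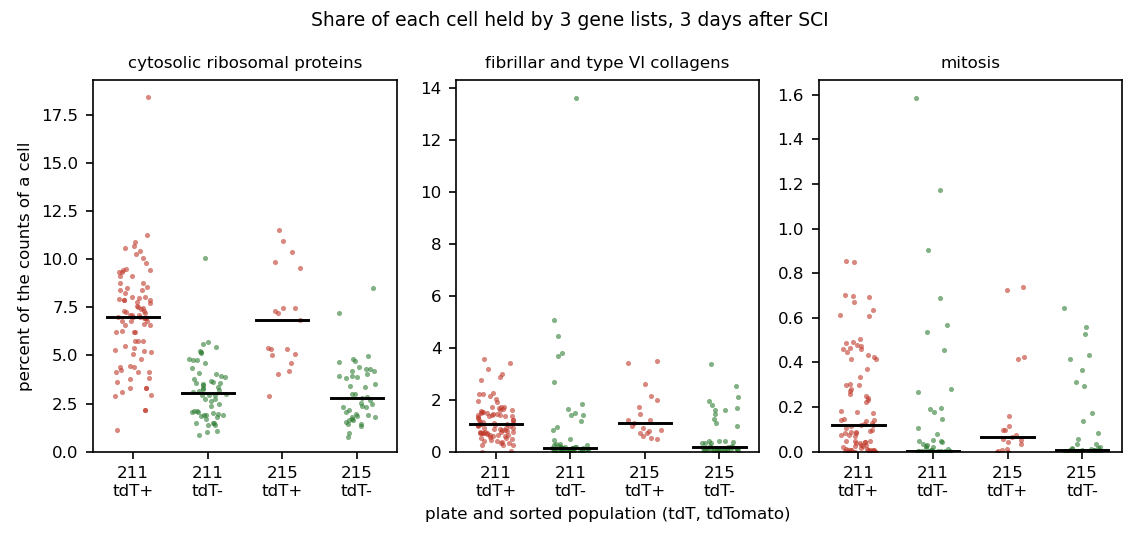
Points are cells with 10000 or more counts and bars are medians, and the y axis gives the percent of a cell's counts in each of 3 lists by plate and sort (tdTomato+EGFP+ red, tdTomato-EGFP+ green). Ribosomal protein medians are near 7% in tdTomato+EGFP+ and near 3% in tdTomato-EGFP+ cells, and the tdTomato-EGFP+ collagen medians (0.137% and 0.185%) and mitosis medians are low, with a tail of high cells.

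Of the other metabolic and response lists, some had members past the bound in both directions and others only towards tdTomato-EGFP+. Their counts are to be read against 3.71% of all measured genes towards tdTomato+EGFP+ and 11.7% towards tdTomato-EGFP+. Of 16 glycolysis genes, Hk2, an inducible hexokinase, was past the bound towards tdTomato+EGFP+ (80.6 against 19.3 CPM on plate 211 and 154.4 against 27.97 CPM on plate 215), and its relative Hk1 (69.9 against 154.7 CPM on plate 211 and 77.5 against 187 CPM on plate 215), the glucose transporter Slc2a1 (104.7 against 496 CPM on plate 211 and 121.6 against 555 CPM on plate 215) and Pfkp (80.6 against 177 CPM on plate 211 and 86.5 against 218 CPM on plate 215) were past it towards tdTomato-EGFP+. Of 20 measured immediate early genes, which respond within minutes to dissociation and other stimuli, Klf2 and Klf4 were past the bound towards tdTomato-EGFP+. That count is near the 11.7% of all measured genes and gives the list no direction of its own. Fos was at 1395 against 1747 CPM on plate 211 and 1271 against 1387 CPM on plate 215. Interferon and MHC class I genes gave 4 of 18 towards tdTomato-EGFP+ and none the other way, or 2 with TMM factors, 2 with the mean CPM of single cells and 9 with both plates summed. The 4 were the antigen-presenting H2-D1 (296 against 889.9 CPM on plate 211 and 208 against 965 CPM on plate 215) and H2-K1 (112.6 against 261 CPM on plate 211 and 102.6 against 502 CPM on plate 215), similar genes that can share reads, and Irf7 and Ifit2, the latter with 71.98% of its plate 211 counts in 1 cell. Complement genes gave 6 of 9 towards tdTomato-EGFP+, among them Clu (clusterin), an extracellular chaperone (7.88 against 225 CPM on plate 211 and 2.38 against 145.5 CPM on plate 215), the alternative-pathway factor Cfb (20.3 against 56.9 CPM on plate 211 and 5.37 against 125.4 CPM on plate 215) and C3, the central component, at 0.475 against 29.9 CPM and 0 against 23.2 CPM, with 79.2% and 53.8% of the counts in 1 cell. Of 10 measured apolipoprotein and lipid genes, 1, Apod, was past the bound towards tdTomato+EGFP+ and 2 towards tdTomato-EGFP+. The latter included the fatty acid carrier Fabp4, at 2.95 against 12.4 CPM on plate 211 and 1.19 against 26.9 CPM on plate 215. Axon guidance genes gave 7 of 12 towards tdTomato-EGFP+ and none the other way, including the chemorepellent Sema3c (2.65 against 56.6 CPM on plate 211 and 3.58 against 50.3 CPM on plate 215) and the guidance cue Ntn1 (26.3 against 92.3 CPM on plate 211 and 20.3 against 136.2 CPM on plate 215).

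**Figure D5:**
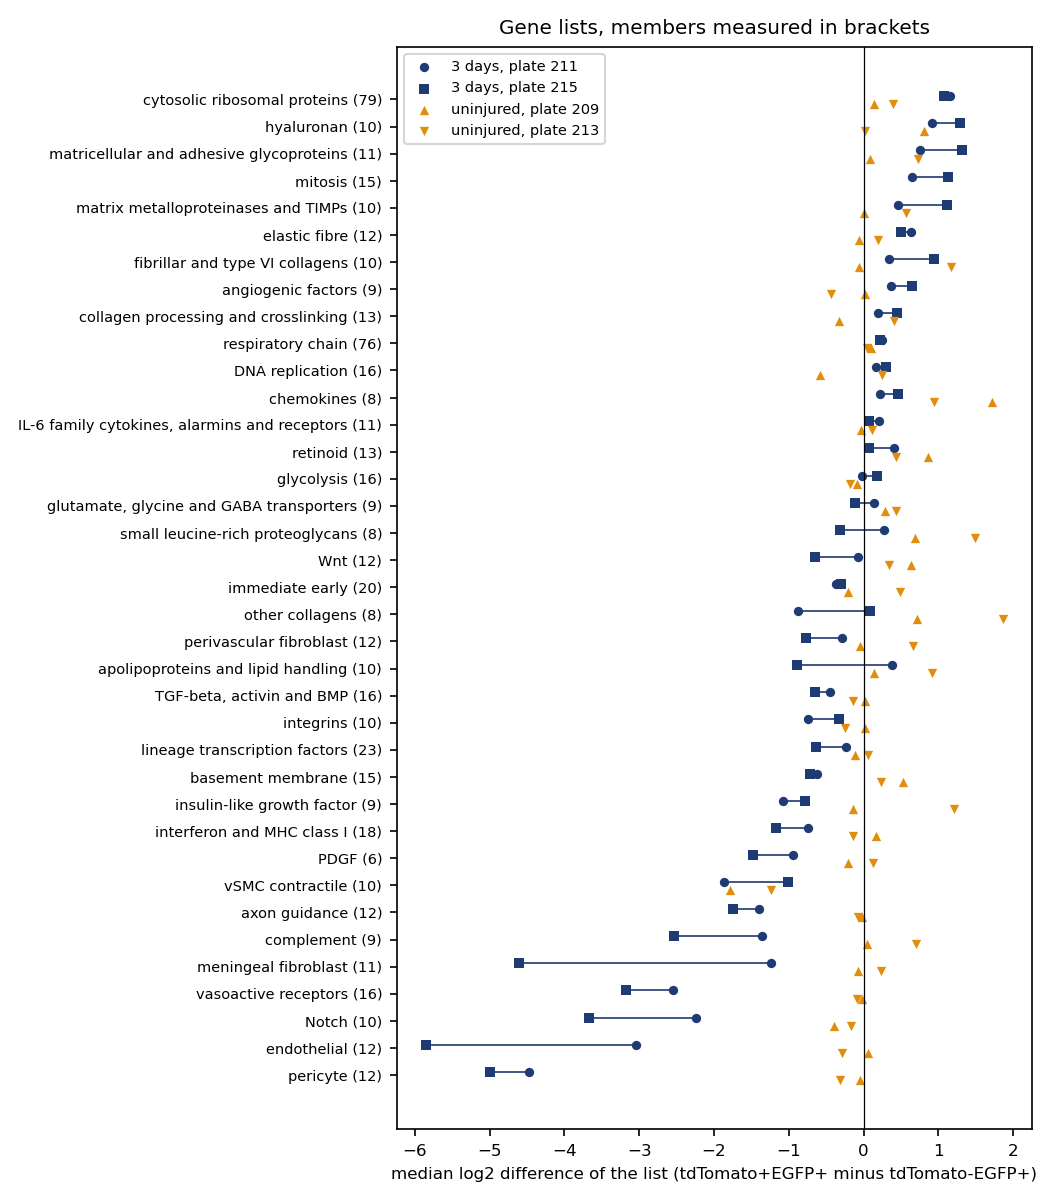
Each row is a gene list with its number of measured genes, and the x axis is the median log2 difference (tdTomato+EGFP+ minus tdTomato-EGFP+) on plate 211 (circle), plate 215 (square) and the uninjured plates 209 and 213 (triangles, where 5 or more genes were measured). Pericyte, endothelial, Notch and vasoactive receptor lists lie far to the left at 3 days and near 0 in uninjured cells, and ribosomal proteins lie near 1 at 3 days. Genes at 0 counts enter with 1 CPM added.

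Fewer genes separated the sorts in uninjured cells, where 208 of 10597 measured genes (1.96%) were past the bound towards tdTomato+EGFP+ and 1.38% towards tdTomato-EGFP+. Of the 3-day genes higher in tdTomato+EGFP+ 236 were also measured in uninjured cells, and 55 of them (23.3%) were past the bound the same way there. Of 1050 higher in tdTomato-EGFP+, 21 (2%) were. Read from the other side, 38.2% and 28% of the uninjured genes past the bound in each direction, and measured at 3 days, kept their direction past the bound at 3 days. Slc1a3 (111.3 against 12.6 CPM on plate 209 and 284 against 40.5 CPM on plate 213), Lama1 (185 against 1.51 CPM on plate 209 and 205 against 6.08 CPM on plate 213), Lum (339 against 36.6 CPM on plate 209 and 465 against 57.3 CPM on plate 213), Spp1 (405 against 37.5 CPM on plate 209 and 335 against 36.3 CPM on plate 213) and Cemip (254 against 0.347 CPM on plate 209 and 305 against 1.53 CPM on plate 213) were higher in tdTomato+EGFP+ cells on all 4 plates. Ednrb (37.1 against 11.3 CPM on plate 209 and 9.4 against 22.3 CPM on plate 213) and Art3 (849.9 against 809 CPM on plate 209 and 619 against 767 CPM on plate 213) were past the bound at 3 days and not in uninjured cells. Whether these contrasts differ between the groups was not tested.

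Because some tdTomato-EGFP+ cells had more fibroblast-list than pericyte-list counts, the contrast was also taken among such cells alone, a choice made after the results had been seen and on measured values, so it is a description. It left 84 and 17 cells on plate 211 and 19 and 15 on plate 215. Among 9204 genes measured there 320 were past the bound towards tdTomato+EGFP+ and 714 towards tdTomato-EGFP+, and 37.3% and 45.8% of the genes past the bound in all cells and measured here remained past it. Slc1a3 was at 209.7 against 27.4 CPM and 298 against 23.2 CPM. Lama1 was at 188 against 0.533 CPM and 272 against 26.2 CPM. The median of the fibrillar and type VI collagens became -0.60, with Col1a1 at 3345 against 6694 CPM and 3246 against 3198 CPM. Col1a1 was thus higher without the mark on plate 211 and nearly level on plate 215. The plate 211 tdTomato-EGFP+ value rests on 17 cells, and in 1 of them the collagen list took 13.6% of the counts. The contrast was not taken without that cell. Basement membrane genes turned to 0.80 (5 of 15 past the bound towards tdTomato+EGFP+, 1 towards tdTomato-EGFP+). The medians of the ribosomal (0.85), mitosis (1.08) and hyaluronan (0.99) lists stayed above 0, but 4 of 79 ribosomal genes were past the bound against 46 in all cells. Meningeal fibroblast genes (8 of 11), complement (8 of 11) and small leucine-rich proteoglycans (5 of 6) were past the bound towards tdTomato-EGFP+, where the proteoglycan count leaves out Lum, Dcn and Fmod, because they belong to the list that selected the cells. Of these Lum was at 2631 against 624 CPM and 2110.2 against 627 CPM, higher in tdTomato+EGFP+ cells. Of the meningeal genes, Crabp2 was at 1.27 against 586 CPM and 0.609 against 313 CPM. Members of the pericyte list, such as Notch3 and S1pr3, were left out here because that list helped select the cells. The medians in all cells include them. Of the rest, only 5 Notch genes and 8 vasoactive receptor genes were measured in these cells. The Notch median was 0.064, with no gene past the bound. The vasoactive receptor median was 0.053, but -1.31 on plate 211 and 0.24 on plate 215, with 3 genes, Ednrb among them (0.212 against 30.1 CPM and 0 against 22.6 CPM), past the bound towards tdTomato-EGFP+ and 1 the other way.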

How the data were processed

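Single perivascular cells were sorted into multiwell plates and sequenced with Smart-seq3. The authors deposited 1 table of counts per gene and cell, not normalized, and the labels name the mm10 genome build, and the aligner and counting tool for these cells, and whether counts are reads or molecules, are not given in the sources used here. Of 1968 cell columns, 503 matched samples and 1465 were not used. The table held 92 spike-in rows, which stayed out of all totals. From the deposited counts, cells with 200 or more genes and under 20% mitochondrial counts were kept, and the Pecam1 rule was applied. Counts were summed per plate and sorted population, scaled to CPM, and compared within plates as differences of log2(CPM + 1), averaged over the plates with equal weight, because no label names an animal and each population is then 1 sample. The study's own upper limit of 1200 genes per cell was not applied. No test was fitted.

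Genes were measured at 10 CPM or more in the higher population on each plate. Those named were Slc1a3, Pdgfrb and, per direction, the 15 with the largest smaller within-plate difference that reached 50 CPM and were detected in at least 20% of the thinned cells of the higher population on each plate, had no single cell with 50% or more of the counts, and were no mitochondrial, ribosomal protein or unnamed genes, together with the members of 46 gene lists. A few genes that this rule names are not reported here. For shares of cells, each cell was thinned to 10000 counts and shallower cells were left out. No clusters were formed, and no doublet caller was run. Intervals are exact Poisson or binomial intervals at 95%, and 0 counts were bounded at 3 counts. The cells, lists and rules were chosen with earlier results of these data known. The scripts were tested on simulated data. Python 3.11.15 (numpy 2.4.6, pandas 2.3.3, scipy 1.17.1) was used, and TMM factors came from edgeR 4.0.16 in R 4.3.3. Alternatives covered the scaling, pseudocount, filters, depth, plates and single cells.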

Additional observations from a re-analysis of the deposited data

Results flagged for a closer look

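Has1, a hyaluronan synthase, was past the bound in opposite directions at 3 days and in uninjured cells. Its mean log2 difference was 1.25 at 3 days (1.10 and 1.39 on plates 211 and 215) and -4.37 in uninjured cells (-5.39 and -3.36 on plates 209 and 213). Among the genes measured on all 4 plates, Ttc21b, Htra3, Ankrd37, Mlkl and Natd1, looked up after the values were seen, were past the bound towards tdTomato-EGFP+ at 3 days and towards tdTomato+EGFP+ in uninjured cells, for example Ankrd37 at -2.81 and -2.80 against 1.39 and 1.52. The difference between the contrasts was not tested, and plate and injury cannot be told apart.

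Synthetic spike-in RNA made up 0.0984% of the counts on plate 211, in every one of its cells, and had no count in the 357 cells of the other plates. These rows entered no total.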

How the results depend on the processing

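No paired analysis was possible because the cells carry no animal or replicate label, and the differences were already taken within each plate, the one unit both sorts share. Of 358 genes towards tdTomato+EGFP+ and 1132 towards tdTomato-EGFP+, summing both plates gave 572 and 2150, a minimum of 50 CPM 216 and 501, and plate 215 alone 944 and 2457. The first count was 590 with TMM factors, 552 with DESeq2 size factors and 654 on plate 211 alone. The second was 739 with a pseudocount of 10 CPM, 1719 with no filter and 714 in cells with more fibroblast-list than pericyte-list counts. The pericyte median of -4.58 moved to -3.96 (plates summed), -4.09 (pseudocount of 10), -5.00 (thinned cells) and -4.99 (plate 215), and the perivascular fibroblast median of -0.42 to -0.77 (50 CPM), -0.78 (cells with 20000 counts or more) and -0.77 (plate 215). The mitosis median of 0.73 became 1.13 on plate 215, and the ribosomal median of 1.12 became 1.34 (TMM), 1.30 (DESeq2), 1.24 (mean of cells) and 1.20 (thinned). The vasoactive receptor median of -2.91 became -1.86 (pseudocount of 10), -3.57 (50 CPM), -2.37 (no filter) and -2.46 (plate 211). In the fibroblast-list cells, chosen after the results were seen, the medians were -0.60 for collagens against 0.61 in all cells, 1.08 for mitosis, 0.85 for ribosomal proteins, and turned to 0.053 for vasoactive receptors, 0.064 for Notch and 0.15 for vSMC genes. Members of the pericyte and fibroblast lists, such as Notch3 and S1pr3, were left out of the medians in these cells. Small counts of list members also moved, such as glycolysis genes towards tdTomato-EGFP+ from 3 to 1 with TMM factors and immediate early genes from 2 to 5 with both plates summed. Single genes that turned were Sncg (0.51 from the mean of cells, 0.14 without the top cell of each plate), Lifr (0.21) and Pdgfb (0.54), both from the mean of cells, and Meox1 (-0.050 in thinned cells). The cause was not tested. Of the calls in all cells, 99.4% and 75.1% remained with TMM factors, 65.9% and 70.1% in thinned cells, and 98.9% and 99.6% without the plate 215 tdTomato+EGFP+ cells under 10000 counts, an alternative chosen after the results were seen. The limit of 1200 genes per cell left too few cells to run.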
